A study of Mus musculus with 12 samples.

Results

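The genes described here encode the nuclear subunits of the oxidative phosphorylation complexes. They were chosen by name: protein-coding genes whose symbol marks a subunit of complex I (Nduf followed by a, b, c, s or v and a digit), complex II (Sdha to Sdhd), complex III (Uqcr), complex IV (Cox4 to Cox8) or complex V (Atp5). Of the 22561 genes counted, 82 fit the rule, with 38 in complex I, 4 in complex II, 8 in complex III, 15 in complex IV and 17 in complex V. The 12 libraries came from sorted splenic follicular (FO) B cells of 10-week-old C57BL6 mice, the B220high AA4.1- CD23+ CD21mid cells that make up most of the mature B cell pool. There were 4 groups of 3 libraries each: unstimulated cells, cells given the type I interferon IFNα, cells given CpG (an unmethylated DNA oligonucleotide that activates TLR9), and cells given both (CpG + IFNα). Stimulation lasted 12 h, and the labels give C57BL6 for every sample, with no other allele or treatment named. Whether the unstimulated cells were cultured for the same time was not given in the sources used here, so an effect of culture and an effect of a stimulus cannot be told apart in any comparison with unstimulated cells.

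Oxidative phosphorylation takes place in the inner mitochondrial membrane. Complexes I and II pass electrons from NADH and succinate to coenzyme Q, complex III passes them on to cytochrome c, and complex IV passes them to oxygen, while complex V, the ATP synthase, uses the proton gradient built up on the way to make ATP. The core membrane subunits of complexes I, III, IV and V are encoded by the mitochondrial genome and all other subunits by nuclear genes. Resting B cells are small cells with a low metabolic rate, and B cells activated through TLR9 grow and divide.

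Library totals ran from 922450 to 2923865 unique molecular identifier (UMI) counts. The 3 replicates of each group differed from each other by more than the sampling noise. The 9 B cell markers summed to 17539 to 20056 CPM (counts scaled to library size) without stimulation and 16765 to 18774 after IFNα, and to 6476 to 6766 after CpG and 5821 to 5931 after both stimuli. The 6 T cell markers counted summed to at most 3.65 CPM in any library, the 3 NK cell markers to at most 1.23 CPM and the 6 myeloid markers to at most 24.6 CPM. The 6 erythroid genes summed to 57.4 to 345 CPM in unstimulated cells and 5.65 to 72.0 CPM with CpG + IFNα, and their part in the results was not tested. Fcer2a (CD23) and Cr2 (CD21), the genes of surface proteins used in the sort, averaged 1227 and 412 CPM without stimulation and 8.15 and 14.0 CPM with both stimuli. The 4 marginal zone B cell genes summed to 219 to 222 CPM without stimulation and 27.8 to 36.5 CPM with both, and the 4 plasma cell genes to 119 to 145 and 45.9 to 73.5 CPM.

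The nuclear subunit genes took up a small share of an unstimulated library and a larger one after CpG. They held 0.893%, 0.989% and 0.939% of the counts in the unstimulated libraries, 0.961%, 0.867% and 0.961% with IFNα, 1.98%, 1.82% and 1.79% with CpG, and 1.63%, 1.51% and 1.65% with both. Every library with CpG lay above every library without it, and the CpG + IFNα libraries lay below the CpG libraries. The share is relative, and in bulk samples a change in the number of cells cannot be told apart from a change in RNA per cell. Complex V genes held the largest part, 0.329% ± 0.025 (SD, n = 3) in unstimulated cells and 0.767% ± 0.040 with CpG. Complex I genes held 0.290% ± 0.015 and 0.546% ± 0.033. The 13 protein genes of the mitochondrial genome, which encode subunits of the same complexes, went the other way: 3.08% ± 0.24 of counts without stimulation, 2.35% ± 0.34 after IFNα, 1.98% ± 0.26 after CpG and 1.69% ± 0.25 after both stimuli. This share rests on a part of the 13. In unstimulated cells mt-Nd1 averaged 7523 CPM, but mt-Co2, mt-Co3 and mt-Atp6 only 64.5, 19.8 and 36.3 CPM. There mt-Nd3, mt-Nd4l and mt-Atp8 averaged 1.01 CPM or less.

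**Figure D1:**
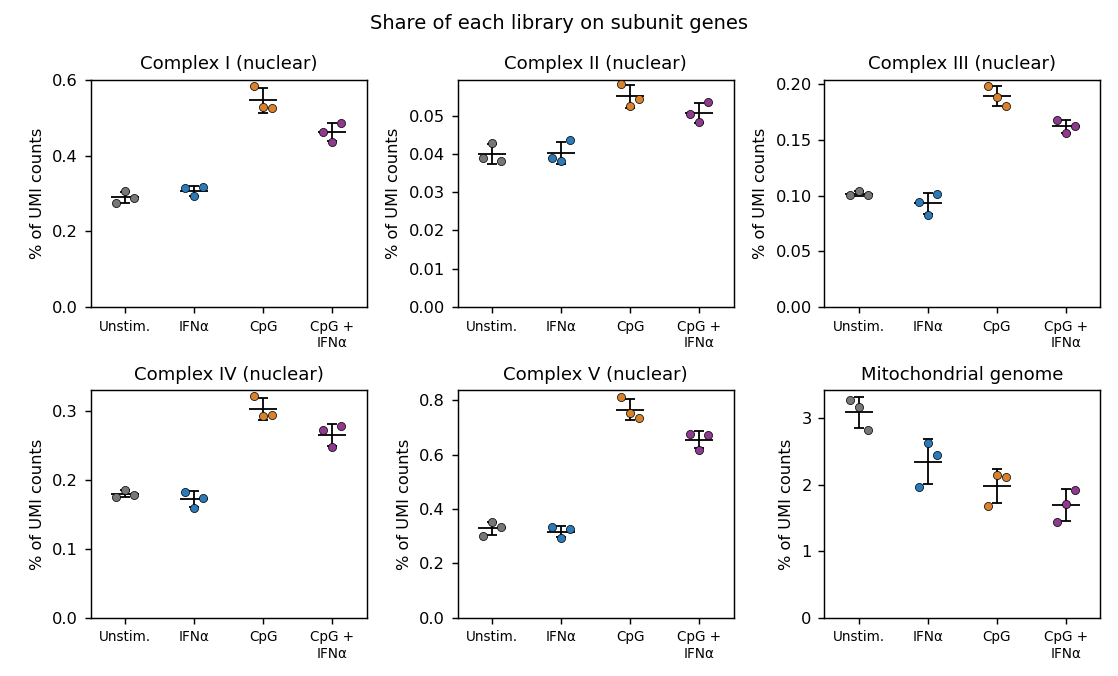
Percent of all UMI counts in each library that fell on the nuclear subunit genes of complexes I to V, and on the protein genes of the mitochondrial genome. Points are the 3 libraries of a group, the wide bar is the mean and the error bar the SD, and in all 5 nuclear panels both groups with CpG lie above both without, while in the mitochondrial genome panel they lie below the unstimulated libraries.

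The first comparison set CpG against unstimulated cells. Of the 82 genes, 78 had enough counts to be tested, each among 9431 genes with edgeR's quasi-likelihood test at an adjusted p under 0.1. With CpG, 71 of the 78 rose and 3 fell, where 36.5% of all genes tested rose and 38.4% fell. The median log2 fold change was 1.05 for the 78 genes and -0.03 for all genes tested. Of the 71, 42 rose more than 2-fold, a size reached by 20.1% of all genes tested, and 1 of the 3 genes that fell did so by more than 2-fold, against 25.5%. In 72 of the 78 genes all 3 CpG libraries were above all 3 unstimulated libraries, which was so for 36.1% of all genes tested, and in 2 all were below (37.1%). The 71, the 42 and the 72 each include Cox6a2, which passed the filter on low counts through the CpG + IFNα group (described below). The 4 genes that were not called were all accessory subunits of complex I: Ndufa3 (log2 fold change 0.18), Ndufa6 (0.03), Ndufb11 (-0.08) and Ndufv3 (-0.09). The median change was 0.995 in complex I, 0.71 in complex II, 1.29 in complex III, 1.1 in complex IV and 1.11 in complex V, and differences between the complexes were not tested.

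**Figure D2:**
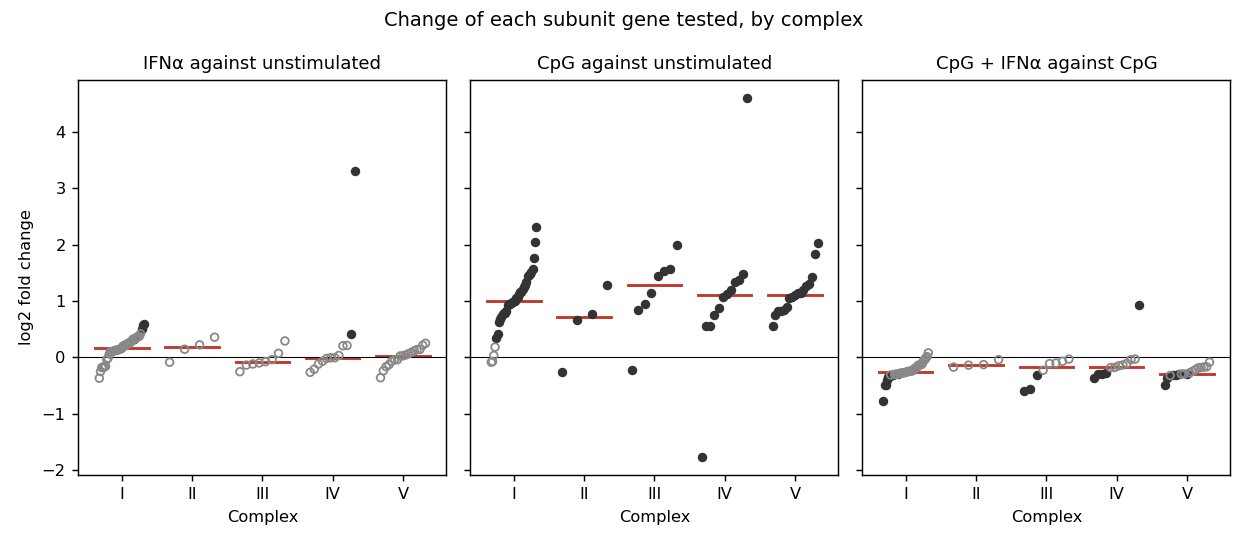
log2 fold change of each of the 78 subunit genes tested, by complex, for IFNα against unstimulated cells, CpG against unstimulated cells, and CpG + IFNα against CpG. Filled points had an adjusted p under 0.1, open points did not, and the red line is the median of a complex, between 0.71 and 1.29 with CpG and closer to 0 in the other panels, with Cox6a2 as the highest point of complex IV (few counts in unstimulated cells).

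In complex I, the 7 nuclear core subunits that carry the flavin and the iron-sulfur clusters or bind coenzyme Q all rose with CpG. Ndufv1, which holds the flavin where NADH is oxidized, averaged 69.0 CPM in unstimulated cells and 133 CPM with CpG (log2 fold change 0.94 ± 0.13 SE, adjusted p = 1.9e-07). Its partner Ndufv2 rose by 1.24, the iron-sulfur subunit Ndufs1 by 1.0, Ndufs3 by 0.96, and Ndufs7 and Ndufs8, which lie on the way to coenzyme Q, by 1.06 and 0.77. Among the accessory subunits, which surround the core, 26 of 30 rose and none fell. Ndufa12 (chromosome 10, 94198720 to 94221443, plus strand, GRCm38), an accessory subunit that joins late in assembly, showed the largest change in the complex. It had 41.9, 31.0 and 49.4 CPM without stimulation, 42.4, 42.0 and 50.4 with IFNα, 243, 199 and 175 with CpG, and 222, 185 and 190 with both. The libraries with and without CpG did not overlap, and the log2 fold change for CpG was 2.31 ± 0.16 (adjusted p = 2.5e-14). Of the 2 most abundant complex I genes of unstimulated cells, Ndufa6 averaged 198 CPM there and 201 CPM with CpG, and Ndufb11 157 and 149 CPM, and neither passed the test.

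Complex II is the enzyme of the citric acid cycle that sits in the respiratory chain, and its 4 subunits did not move together. Sdha, the flavoprotein that oxidizes succinate (chromosome 13, 74322254 to 74350280, minus strand), had 172, 176 and 144 CPM without stimulation, 167, 136 and 161 with IFNα, 152, 128 and 129 with CpG, and 122, 121 and 128 with both. It fell by 0.27 on the log2 scale with CpG (SE 0.12, adjusted p = 0.055), with 1 CpG library inside the range of the unstimulated ones. This call was lost without unstimulated replicate 1 or 2 or without CpG replicate 2 or 3, when the value was -0.21 to -0.19, and by DESeq2 (adjusted p = 0.12). The iron-sulfur subunit Sdhb had 116, 117 and 109 CPM in unstimulated cells and 201, 182 and 201 with CpG, a log2 fold change of 0.77 ± 0.12. The membrane anchors Sdhc and Sdhd rose by 0.65 ± 0.14 and 1.28 ± 0.16.

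In complex III the 3 larger nuclear subunits that fit the name rule rose to a similar degree, and the small subunits spread more widely. Cytochrome c1 (Cyc1), which the name rule leaves out, rose more, by 1.97 ± 0.14 on the log2 scale. The Rieske iron-sulfur protein Uqcrfs1 rose by 0.85 on the log2 scale and the core proteins Uqcrc1 and Uqcrc2 by 0.94 and 1.14. Uqcrc1 averaged 165 CPM ± 9.35 (SD, n = 3) in unstimulated cells and 316 ± 10.0 with CpG. Among the 5 small subunits, Uqcrq (chromosome 11, 53427922 to 53430831, minus strand) rose the most. It had 89.2, 90.9 and 102 CPM without stimulation, 115, 64.5 and 83.9 with IFNα, 441, 362 and 326 with CpG, and 389, 360 and 353 with both. Its log2 fold change with CpG was 1.99 ± 0.15 (adjusted p = 1.6e-13). Uqcrh, the hinge protein next to cytochrome c1 (chromosome 4, 116066965 to 116075071, minus strand), was the most abundant complex III gene of unstimulated cells and did not follow. It had 371, 377 and 335 CPM without stimulation, 325, 282 and 391 with IFNα, 314, 297 and 313 with CpG, and 234, 175 and 223 with both. Its decrease with CpG, -0.23 ± 0.12, only just passed the test (adjusted p = 0.099), although the 3 CpG libraries lay below the 3 unstimulated ones. The call was lost by DESeq2 and when any 1 library other than unstimulated replicate 3 or IFNα replicate 2 was left out, with values of -0.22 to -0.17 then.

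Complex IV held the gene that fell most and, of those tested, the gene that started lowest. Cox4i1, the largest nuclear subunit, had 423, 427 and 396 CPM in unstimulated cells and 684, 603 and 551 with CpG, a rise of 0.56 ± 0.11 on the log2 scale (adjusted p = 3.9e-05). Leaving out Cox6a2, the other 11 genes tested ranged from -1.77 for Cox7a2l to 1.48 ± 0.13 for Cox7a2. These are close relatives. Cox7a2 is the usual subunit of complex IV outside muscle, and Cox7a2l (also called SCAF1) joins complex III to complex IV in supercomplexes. Cox7a2 had 89.2, 74.9 and 83.8 CPM in unstimulated cells and 249, 220 and 226 with CpG. Cox7a2l (chromosome 17, 83501918 to 83517330, minus strand) had 206, 224 and 200 CPM without stimulation, 200, 168 and 212 with IFNα, 69.4, 57.7 and 57.4 with CpG, and 64.4, 53.1 and 54.5 with both. The 2 groups with CpG lay below the 2 groups without it with no overlap (CpG against unstimulated, -1.77 ± 0.13, adjusted p = 1.2e-13). Of the other pairs, Cox6b1 and Cox8a rose by 0.88 and 0.56, while the tissue-restricted forms Cox6b2 and Cox7a1 had at most 3 counts in any library and were not tested, as were Cox5b-ps and, in complex I, Ndufa4l2, the hypoxia-linked relative of Ndufa4. Ndufa4 itself, placed in complex I by its name and now assigned to complex IV, rose by 1.22 ± 0.13.

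Cox6a1 and Cox6a2 are alternative forms of one complex IV subunit, Cox6a1 in most tissues and Cox6a2 in heart and skeletal muscle. Cox6a1 had 234, 256 and 221 CPM without stimulation, 249, 220 and 239 with IFNα, 408, 390 and 390 with CpG, and 378, 324 and 379 with both (CpG against unstimulated, 0.74 ± 0.11, adjusted p = 5.3e-07). Cox6a2 (chromosome 7, 128205435 to 128206387, minus strand) had 0, 1 and 0 counts in the unstimulated libraries, 5, 4 and 6 with IFNα, 27, 8 and 13 with CpG, and 35, 45 and 40 with both. As a ratio of summed counts per library total to unstimulated cells, with 1 count there, this was 11.4-fold with IFNα (95% exact interval 1.76 to 480), 29.8-fold with CpG (5.11 to 1203) and 55.9-fold with both (9.84 to 2225), intervals that cover counting error only. The level with both stimuli was 18.4 CPM ± 2.59, against 360 CPM for Cox6a1. Cox6a2 passed the filter on low counts through the CpG + IFNα group, where it is highest, so its calls are a description only. Cox6a2 is also a marker of plasmacytoid dendritic cells. Of the other 3 markers of those cells, Siglech and Klk1 had no count in any library, and Ccr9 had 1 to 13 counts in each library, with 2, 6 and 5 in unstimulated cells and 5, 13 and 3 with CpG + IFNα.

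All 17 genes of complex V rose with CpG, 11 of them more than 2-fold. In the catalytic F1 head, Atp5b, the β subunit that makes ATP (chromosome 10, 128083273 to 128090391, plus strand), was the most abundant of the 82 genes in every group, on a scale of 3′ UMI counts that does not grow with transcript length. It had 477, 529 and 525 CPM without stimulation, 548, 463 and 476 with IFNα, 1953, 1819 and 1669 with CpG, and 1835, 1607 and 1678 with both. The log2 fold change with CpG was 1.83 ± 0.11 (adjusted p = 1.2e-15), the smallest adjusted p of the 78 genes. The α subunit Atp5a1, which pairs with it in equal numbers in the enzyme, went from 432 CPM ± 18.6 to 988 ± 19.1, a change of 1.19 ± 0.11. The subunits of the central shaft, Atp5c1, Atp5d and Atp5e, rose by 0.90, 0.82 and 0.75. The 4 genes of the peripheral stalk rose by 0.84 to 1.43, with the highest value for Atp5o (1.43 ± 0.13), and the 5 small membrane subunits by 0.55 to 1.13.

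The ring of the ATP synthase that turns with the proton flow is built of subunit c, and Atp5g1, Atp5g2 and Atp5g3 encode the same mature protein with different import sequences. Atp5g1 (chromosome 11, 96068852 to 96075670, minus strand) had 67.3, 83.4 and 85.6 CPM without stimulation, 78.7, 52.3 and 72.5 with IFNα, 375, 298 and 295 with CpG, and 261, 245 and 283 with both. Atp5g3 had 256, 317 and 300 CPM in unstimulated cells and 767, 675 and 701 with CpG. Atp5g2 had 49.1, 57.8 and 61.8 CPM and 117, 95.5 and 86.4. For all 3 genes every CpG library lay above every unstimulated one, with log2 fold changes of 2.03 ± 0.14 for Atp5g1, 0.82 ± 0.16 for Atp5g2 and 1.30 ± 0.11 for Atp5g3. The differences among the 3 genes were not tested.

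**Figure D3:**
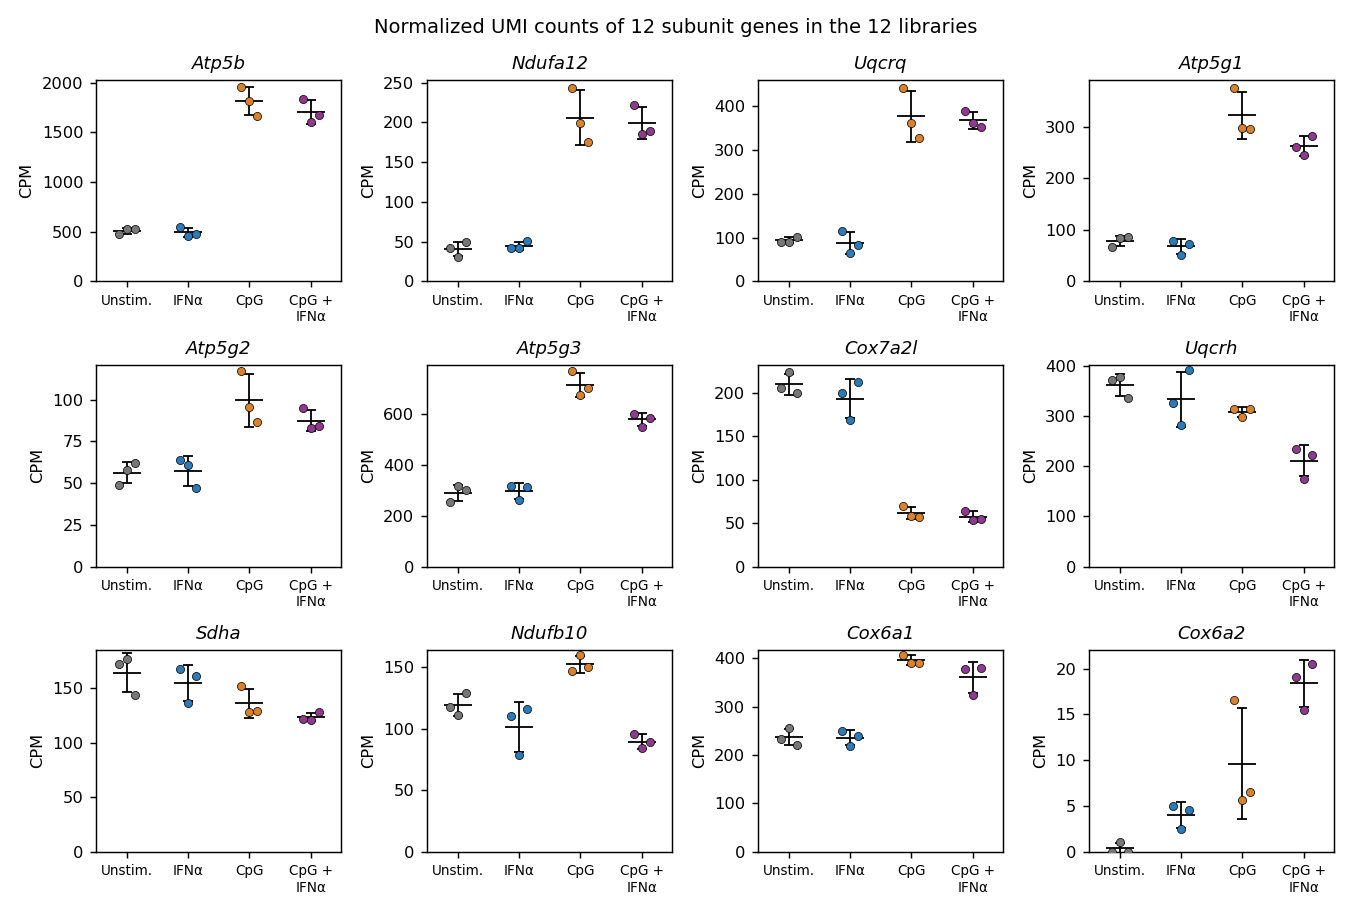
Normalized UMI counts (CPM) of 12 subunit genes in the 3 libraries of each of the 4 groups. Points are libraries, the wide bar is the mean and the error bar the SD, and each panel has its own axis from 0, with Atp5b, Ndufa12, Uqcrq and the Atp5g genes higher in both groups with CpG, Cox7a2l lower in both, and Uqcrh and Ndufb10 lowest on average with CpG + IFNα.

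Letters that bind known regulators of these genes were looked for in their promoters, since most of the genes rose together. RefSeq promoter sequences (GRCm38.p6, from 250 bases before to 50 after the start site) matched 66 of the 82 genes and 7234 of the genes tested. GCATGCGC, the core of the site of nuclear respiratory factor 1 (NRF1), occurred on either strand in 10 of the 66 promoters (15.2%), in 6.35% of the genes tested and in 2.8% of all 27025 genes in the promoter table. The full NRF1 site, which is GC followed by the core, with at most 1 mismatch, occurred in 33.3%, 16.2% and 6.58%. The CCGGAAG site of ETS factors such as GABP occurred in 24.2%, 22% and 9.12%, and the CACGTG E-box bound by MYC in 9.09%, 11.4% and 7.24%. AAGATGGC, the site of YY1, occurred in 9 of the 66 promoters (13.6%), in 5.76% of the genes tested and in 2.88% of all genes. In 8 of those 9 it lay on the strand of the gene, 22 to 38 bases after the start site. Of the 9, 7 were complex I genes, which held 32 of the 66 promoters. A site on that strand after the start was held by 12.1% of the 66 promoters and 2.86% of the genes tested. The core of NRF1 was held by 15.8% of the 57 promoters of subunit genes that rose with CpG and by 14.3% of the 7 promoters of tested subunit genes that did not, and by 7.61% of the promoters of all genes that rose with CpG. These are matches of letters, with no measurement of binding.
The sites with an NRF1 core that ends before the start site are shown because the core recurs across complexes (it was found in all 5, in complex III only across or after the start). Each is 30 bases on the strand of its gene, with the core in capitals. The start site is that of the first RefSeq entry of a gene. By the GENCODE M21 coordinates the cores of Ndufa8, Sdhb, Atp5g2 and Atp5k lie inside the gene.
Ndufa6 (complex I, chr15:82354356-82354385, minus strand): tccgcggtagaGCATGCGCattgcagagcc
Ndufa8 (complex I, chr2:36049339-36049368, minus strand): gcgcttgcgcgtcgctggagacGCATGCGC
Ndufa11 (complex I, chr17:56717693-56717722, plus strand): ctgcactgcgcGCATGCGCgcacgccttgt
Sdhb (complex II, chr4:140961206-140961235, plus strand): aagcccagtggGCATGCGCcctacgggccg
Cox6a1 (complex IV, chr5:115349100-115349129, minus strand): aggaacggggcGCATGCGCgctctcgctcc
Atp5g2 (complex V, chr15:102671069-102671098, minus strand): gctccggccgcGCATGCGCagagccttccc
Atp5k (complex V, chr5:108434429-108434458, minus strand): ttcactgcggcGCATGCGCctttctggctt
Atp5l (complex V, chr9:44920963-44920992, minus strand): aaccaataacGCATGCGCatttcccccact
With CpG the log2 fold changes of these 8 genes were 0.03, 0.82, 0.78, 0.77, 0.74, 0.82, 1.11 and 0.55 in the order given. Ndufa6, which has the core, was not called, and 7 of the 8 rose.

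The second comparison set CpG + IFNα against unstimulated cells. Of the 78 genes, 68 rose and 7 fell, where 37.6% and 38.8% of all genes tested did, and the median log2 fold change was 0.88 against -0.01 for all genes tested. More than 2-fold changes numbered 25 up and 1 down, against 20.3% and 25.6% of all genes tested. Cox6a2, which passed the filter on low counts through the CpG + IFNα group, is among the 68 and the 25. Atp5b rose by 1.74 ± 0.11, Uqcrq by 1.96 ± 0.15 and Ndufa12 by 2.26 ± 0.16. The 7 genes that fell came from 4 complexes. Cox7a2l fell by 1.88 on the log2 scale (SE 0.13, adjusted p = 1.2e-14) and Uqcrh by 0.78 (SE 0.12, adjusted p = 1.3e-06). Ndufv3, a regulatory subunit beside the flavin site of complex I, had 57.3, 54.6 and 43.2 CPM without stimulation, 78.7, 62.6 and 61.1 with IFNα, 53.4, 44.9 and 46.9 with CpG, and 38.2, 33.1 and 32.4 with both. Its change against unstimulated cells was -0.58 ± 0.17 (adjusted p = 0.003). The accessory subunits of complex I Ndufb10, Ndufb11 and Ndufa3 fell by 0.42, 0.39 and 0.31, and Sdha by 0.41. In Sdha and Uqcrh, both at the edge of the test with CpG alone, all CpG + IFNα libraries lay below all unstimulated ones. In 69 of the 78 genes, with Cox6a2 among them, the CpG + IFNα libraries were all above the unstimulated ones, and in 7 all below, against 36.6% and 37.3% of all genes tested. The call for Ndufa3 was lost by DESeq2 and without unstimulated replicate 3, CpG + IFNα replicate 1 or CpG + IFNα replicate 2 (-0.26 to -0.25).

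The third comparison asked what IFNα did alone. Of the 78 genes 6 rose and none fell, and 49 had a positive change. One of the 6 is Cox6a2, whose counts in these 2 groups were too low to pass the filter by themselves, which leaves 5. Over all genes tested 12.4% rose and 11.9% fell. None of the other 5 passed 2-fold, a size that 4.56% of all genes tested reached as higher and 4.07% as lower. In 17 genes, with Cox6a2 among them, the IFNα libraries were all above the unstimulated ones and in 2 all below, against 16.4% and 16% of all genes tested. With library size as the only scaling, 2 of the 78 fell, and the median change of the 78 was 0.02 in place of 0.10. The 5 genes were Ndufa13, Ndufb1-ps, Ndufb9, Cox7a2 and Ndufa6, 4 of them in complex I. Ndufa13, first known as GRIM-19, a gene of the response to interferon and retinoic acid in tumor cells, had 117, 132 and 136 CPM without stimulation, 239, 165 and 174 with IFNα, 187, 161 and 161 with CpG, and 135, 131 and 135 with both. All 3 IFNα libraries were above all 3 unstimulated ones (0.57 ± 0.13, adjusted p = 0.0019). Ndufb1-ps, which the count table lists as protein-coding and GENCODE M21 as a non-coding RNA, had 64.6, 69.5 and 71.5 CPM in unstimulated cells and 94.8, 102 and 112 with IFNα (0.59 ± 0.14, adjusted p = 0.0028). Ndufb9, a complex I subunit of the LYR family, had 80.1, 95.2 and 78.5 CPM and 120, 111 and 126 (0.50 ± 0.14, adjusted p = 0.012). Without unstimulated replicate 3, 3 of the 78 genes rose.

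The fourth comparison, CpG + IFNα against CpG, asked what IFNα added to CpG. Of the 78 genes, 22 were lower, 1 was higher and 55 were not called, where 8.83% of all genes tested were lower and 6.54% higher. The median log2 fold change was -0.25, against -0.04 for all genes tested, and none of the 23 changes reached 2-fold, a size that 2.01% of all genes tested reached as lower and 2.95% as higher. In 49 of the 78 genes all CpG + IFNα libraries were below all CpG libraries, which held for 16.7% of all genes tested, and in none were they all above (11.5%). The 22 lower genes were 9 of complex I, 3 of complex III, 4 of complex IV and 6 of complex V. The number called was not stable. It was 7 by DESeq2, 5 with no filter on low counts and 12 with DESeq2 size factors in edgeR, and without unstimulated replicate 3, CpG replicate 1, CpG replicate 3, CpG + IFNα replicate 2 or CpG + IFNα replicate 3 it was 9, 7, 14, 7 and 13. It was higher in other settings, 31 without IFNα replicate 2, 31 with the replicate number as a block, and 27 with library size as the only scaling. The median was negative in every one of these settings.

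Ndufb10 (chromosome 17, 24722060 to 24724478, minus strand), an accessory subunit of the membrane arm of complex I, had 117, 111 and 129 CPM without stimulation, 110, 78.4 and 116 with IFNα, 147, 160 and 150 with CpG, and 95.5, 83.8 and 88.9 with both. It was thus higher with CpG than without (0.35 ± 0.13, adjusted p = 0.019) and lower with CpG + IFNα than with CpG (-0.77 ± 0.12, adjusted p = 2.1e-05). Uqcrh was lower by 0.56 on the log2 scale (-0.56 ± 0.12, adjusted p = 0.0014). Uqcr11, another small subunit of complex III, had 30.9, 43.9 and 48.5 CPM without stimulation, 42.4, 29.2 and 47.3 with IFNα, 133, 118 and 108 with CpG, and 79.1, 75.9 and 81.2 with both (-0.60 ± 0.14 against CpG, adjusted p = 0.0022). The catalytic subunits reported here ran from -0.32 for Ndufs1 to 0.08 for Ndufs3, neither of which was called. Atp5b changed by -0.09 ± 0.11, Atp5a1 by -0.17 ± 0.10, Uqcrfs1 by -0.11 ± 0.10 and Sdhb by -0.04 ± 0.10, none of which passed the test. Ndufv2, Atp5o and Atp5c1, at -0.28, -0.28 and -0.25, were not called either. Ndufv1 was called at -0.30 ± 0.11 (adjusted p = 0.097) and Atp5d at -0.31 ± 0.11 (adjusted p = 0.053). The 1 higher gene was Cox6a2 (0.92 ± 0.32, adjusted p = 0.057), which passed the filter on low counts through the CpG + IFNα group. Its highest CpG library, at 16.6 CPM, lay within the range of the CpG + IFNα libraries (19.1, 15.5 and 20.6 CPM), and the call was lost by DESeq2 (adjusted p = 0.33), when all libraries were thinned to the lowest total (1.14, adjusted p = 0.12), and without CpG replicate 2 or 3 or CpG + IFNα replicate 1 or 3 (0.66 to 0.89, adjusted p = 0.12 to 0.31).

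Against IFNα alone, CpG + IFNα raised 65 of the 78 genes and lowered 8, with 36.1% of all genes tested higher and 39.8% lower, and the median change was 0.75. The 18 genes that rose more than 2-fold and the 1 that fell as far compare with 18.7% and 25.5% of all genes tested. In 66 genes the CpG + IFNα libraries were all above the IFNα libraries and in 8 all below, against 35% and 37.4%. Cox6a2, which passed the filter on low counts through the CpG + IFNα group, is among the 65, the 18 and the 66. Uqcrq rose by 2.10 ± 0.15, Ndufa12 by 2.14 ± 0.15 and Atp5b by 1.79 ± 0.11, and Cox7a2l fell by 1.76 on the log2 scale. Ndufv3 fell by 0.95 and Uqcrh by 0.66, and the other lower genes were Ndufa13 (-0.51), Ndufa6 (-0.43), Sdha (-0.32), Ndufa3 (-0.28) and Ndufb11 (-0.21). Without IFNα replicate 1, 5 genes were lower.

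The test of the difference between the IFNα effect with CpG and the IFNα effect without it called 14 of the 78 genes, all with a smaller or more negative effect in the presence of CpG, where 7.58% of all genes tested were called in that direction and 5.84% in the other. None of the 14 differences passed 2-fold, which 3.17% of all genes tested did in that direction and 3.09% in the other. The median of this difference was -0.33, against -0.05 for all genes tested. Of the 14, 11 were accessory or core subunits of complex I, which makes up 37 of the 78 genes, 2 belonged to the peripheral stalk of complex V and 1 was Cox7a2. In Ndufa13 the difference was -0.92 ± 0.18 (adjusted p = 0.00085), from a change of 0.57 without CpG and -0.35 with it. In Ndufb1-ps it was -0.88 ± 0.19 and in Ndufb9 -0.70 ± 0.18. Cox7a2 rose by 0.41 with IFNα alone and fell by 0.29 with IFNα on top of CpG, a difference of -0.70 ± 0.18. Ndufv3 gave -0.86 ± 0.23 and Atp5j, a stalk subunit, -0.58 ± 0.16. Ndufb10 was the only gene of the 14 with a negative value in both settings. The number called was 6 without unstimulated replicate 3, 24 without IFNα replicate 2 and 8 without CpG + IFNα replicate 2, and 7 by DESeq2.

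**Figure D4:**
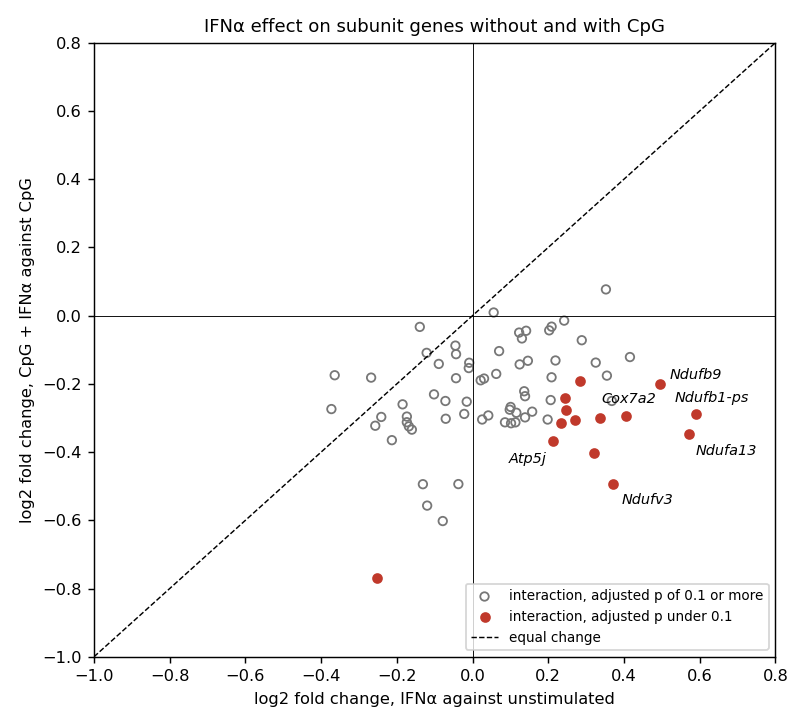
log2 fold change with IFNα in the absence of CpG (x axis) and in its presence (y axis) for 77 of the 78 subunit genes tested, with Cox6a2 outside the axes and not drawn. Red points had an adjusted p under 0.1 in the test of the difference, and all 14 lie below the dashed line of equal change and, but for Ndufb10, to the right of 0.

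Other genes of the same pathways were counted beside the subunits, to be read against the 36.5% of all genes tested that rose and the 38.4% that fell with CpG (37.6% and 38.8% with CpG + IFNα). The 3 that the name rule leaves out all rose with CpG: Ndufab1, the acyl carrier subunit of complex I (2.24 ± 0.13), Cyc1, the cytochrome c1 of complex III (1.97 ± 0.14), and Cycs, cytochrome c itself (2.27 ± 0.17). Cycs had 26.4, 26.7 and 23.8 CPM in unstimulated cells and 141, 111 and 118 with CpG. Of 47 assembly factors tested, which build the complexes and are not part of them, 34 rose and 1 fell with CpG (median 0.76), and 30 rose and 4 fell with CpG + IFNα (median 0.61). Ndufaf4, a complex I factor, rose from 41.1 CPM ± 4.1 to 185 ± 22 with CpG, and the mRNA-binding protein Lrpprc from 53.3 ± 8.6 to 177 ± 6.4. Sco1, a copper chaperone of complex IV, had 15.5, 11.8 and 16.8 CPM without stimulation, 38.7, 41.3 and 29.5 with CpG, and 62.7, 68.7 and 63.2 with both, where it was 0.85 ± 0.16 above CpG (adjusted p = 0.00014). Ndufaf3, another complex I factor, fell from 27.4 CPM ± 6.2 to 8.46 ± 0.44 with CpG + IFNα and was -1.30 ± 0.27 from CpG (adjusted p = 0.0007). The other 3 assembly factors that fell with CpG + IFNα against unstimulated cells were Sdhaf4 of complex II, Uqcc3 of complex III and Cmc2 of complex IV, with log2 fold changes of -0.87, -0.56 and -0.89. Among those that rose, the change was 1.43 in Ndufaf8 of complex I, 1.65 and 1.51 in Uqcc2 and Bcs1l of complex III, and 1.97 and 1.16 in Tmem70 and Atpaf2 of complex V. The complex II factors Sdhaf3 and Sdhaf1 rose by 0.87 and 0.37, the second of which turned to -0.014 with counts thinned to the lowest total.

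The protein genes of the mitochondrial genome gave counts in the opposite direction. Of 10 tested, none rose and 8 fell with CpG (median -0.83). With IFNα alone none rose and 5 fell (median -0.28), where 12.4% of all genes tested rose and 11.9% fell. mt-Co1, the catalytic subunit of complex IV, had 1901, 1960 and 1739 CPM without stimulation, 962, 1230 and 1125 with IFNα, 584, 717 and 744 with CpG, and 539, 654 and 709 with both. mt-Cytb of complex III fell by 1.14 on the log2 scale with CpG. The assay primes from poly(A) tails, and tails of mitochondrial transcripts were not measured. Of 18 genes of citric acid cycle enzymes, the pyruvate dehydrogenase that feeds the cycle and the cytosolic Mdh1, 15 rose and 1 fell with CpG (median 0.70), and 12 rose and 2 fell with CpG + IFNα (median 0.40). Idh3a and Mdh2 rose by 1.54 and 1.13 with CpG + IFNα, and Ogdh and Mdh1 fell by 0.46 and 0.42. Of 13 genes of coenzyme Q synthesis, 7 rose and 4 fell with CpG, where 36.5% and 38.4% of all genes tested did. Coq4 rose from 8.26 CPM ± 2.4 to 42.6 ± 4.0, while Coq8a, a kinase-like protein of the pathway, fell from 52.5 ± 6.2 to 8.02 ± 3.2 (-2.71 ± 0.26). With CpG + IFNα against unstimulated cells Coq2, which attaches the isoprenoid tail, rose by 1.12 on the log2 scale and Coq10b, a coenzyme Q-binding protein, fell by 1.56.

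**Figure D5:**
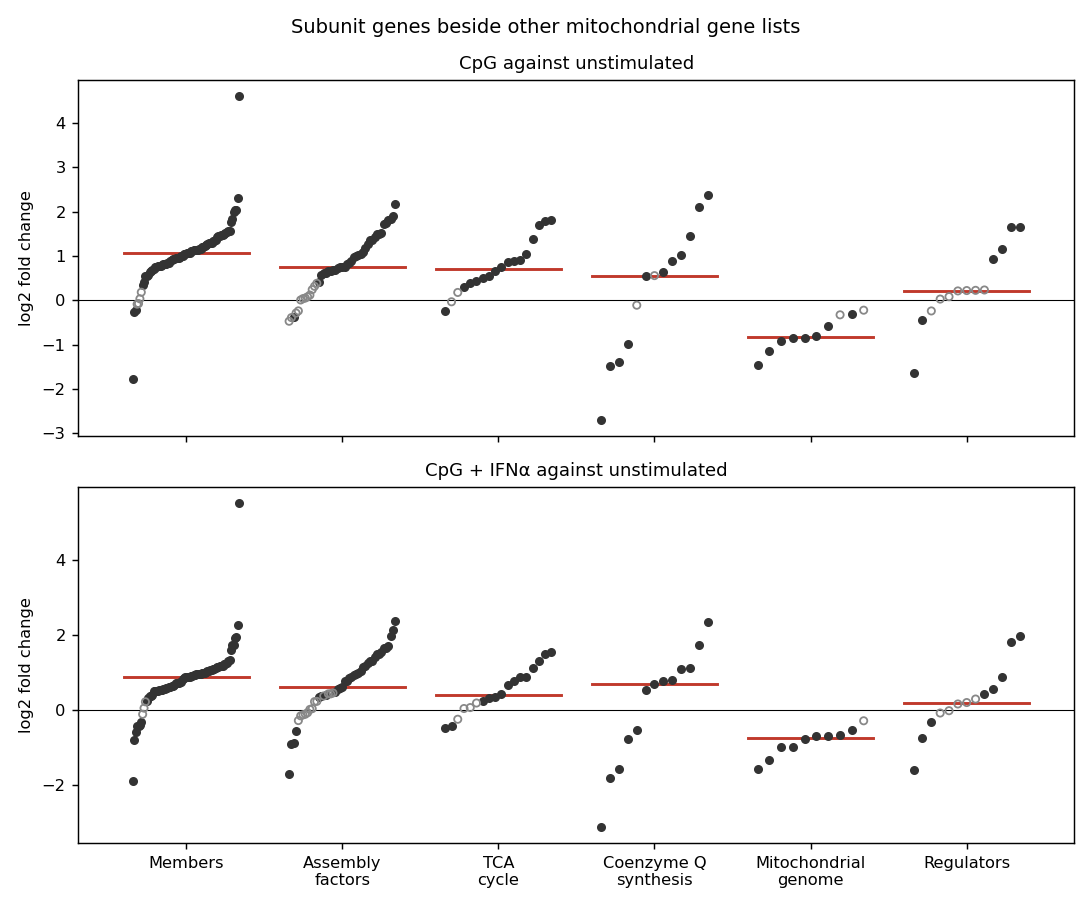
log2 fold change with CpG (upper panel) and with CpG + IFNα (lower panel), both against unstimulated cells, of the nuclear subunit genes (members) and of 5 other lists: assembly factors, citric acid cycle (TCA) and pyruvate dehydrogenase genes, coenzyme Q synthesis, protein genes of the mitochondrial genome, and regulators of mitochondrial gene expression. Filled points had an adjusted p under 0.1, open points did not, and red lines are medians, with CpG 1.05 for the members and -0.83 for the mitochondrial genome.

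Among 13 regulators of mitochondrial genes that were tested, 4 rose and 2 fell with CpG, where 36.5% and 38.4% of all genes tested did. Myc, a growth regulator that binds the E-box, had 225, 143 and 168 CPM without stimulation, 48.4, 26.8 and 38.9 with IFNα, 572, 610 and 520 with CpG, and 755, 647 and 725 with both. It fell by 2.28 on the log2 scale with IFNα alone and rose by 1.66 with CpG. The coactivator Pprc1 rose by 1.65 ± 0.18 with CpG, the ETS factor Gabpa by 0.93 ± 0.20, and the mitochondrial transcription factor Tfb2m by 1.16 ± 0.29. Esrra, a nuclear receptor that drives respiratory genes in muscle, fell by 1.64 on the log2 scale (adjusted p = 3e-06), and Gabpb2 by 0.45. Nrf1 averaged 53.3 CPM in unstimulated cells and 54.6 with CpG (0.03 ± 0.16). Yy1 (0.21 ± 0.12), Tfam (0.22 ± 0.13), Gabpb1 (0.23 ± 0.19), Polrmt (0.08 ± 0.22), Tfb1m (0.22 ± 0.42) and Ppargc1b (-0.24 ± 0.29) were not called, and Ppargc1a was too low to be tested. In IFNα alone Tfam rose by 0.38 and Yy1 by 0.30.

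Many of these genes have processed pseudogenes, which can draw reads away or add to them. For the 82 genes, words of 81 bases, the length of the cDNA read, were taken from the last 500 bases of their protein-coding GENCODE M21 transcripts (for Ndufb1-ps, which has none there, of all its transcripts) and looked up in all other genes. In 56 genes no word was shared, in 26 some were, and in 12 more than 20% were. Of the genes described above, the shared part was 25.7% in Ndufa12, 33.4% in Atp5g1, 43.9% in Atp5g2, 43.1% in Ndufs3, 69.5% in Atp5l, 25.6% in Atp5o and 23.8% in Ndufb9, so their counts are less certain, while it was 0 in Atp5b, Cox7a2l, Ndufb1-ps, Sdha and Uqcrq and 1.58% in Uqcrh. The 15 pseudogenes that fit the name rule had at most 7 counts in a library. Most of the genes that shared words have names outside the rule, and their counts are not given here.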

How the data were processed

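RNA of 12 FO B cell samples was measured by BRB-seq, a bulk 3′ method in which oligo-dT primers carry sample barcodes and UMIs. The deposited values are raw counts: per the labels and the methods, the authors extracted UMIs with UMI-tools 1.1.2, trimmed with Trim Galore 0.6.7, aligned to GRCm38 with HISAT2 2.2.1, assigned reads with featureCounts 2.0.1, extended the Tlr9 annotation, and counted unique UMIs. How reads with several hits were treated is not given in the sources used here. UMI counts do not grow with transcript length.

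Counts were tested here with edgeR 4.0.16 (quasi-likelihood test, TMM scaling, filterByExpr by group, all 12 libraries in 1 fit with 8 residual degrees of freedom, R 4.3.3). P-values were adjusted by Benjamini-Hochberg over 9431 genes and called under 0.1, a second call asking also for a log2 fold change over 1. Adjusted p-values in the text are from this test unless DESeq2 1.42.0 is named. SE is that of the log2 fold change. CPM use TMM-scaled library sizes. Coordinates are from GENCODE M21 (GRCm38), which held all 22561 gene IDs. The fit was tested on simulated data. Replicates were numbered in the labels, and nothing states that they were separate mice, so p-values measure the spread between these samples, which may be technical. The samples were not treated as paired, since correlations of same-numbered deviations were not all over 0.1. With unstimulated cells as one of the groups they were -0.072 to 0.045. Among the stimulated groups all were positive, 0.004 to 0.222, with 0.173, 0.175 and 0.053 between CpG and CpG + IFNα. A shared source is not excluded: the barcode list gives the same 3 numbers in each group, and hemoglobin Hbb-bs counts were highest in replicate 1 and lowest in replicate 3 of every group.

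Members and lists were chosen with earlier results of these data known. Named by rule were the 2 most abundant members of a complex, the 3 with the smallest p in each direction among called members with no overlap between groups, members called in the interaction (at most 6) or against the majority with CpG + IFNα (at most 8), isoform families, catalytic subunits (1 is not reported here), members not tested, all regulators, and 2 genes a direction of the other lists (of the assembly factors, for each complex). Others are named to complete a count or a motif set, after their values were seen.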

Additional observations from a re-analysis of the deposited data

Results flagged for a closer look

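In 14 of the 78 genes the IFNα effect differed between cells with and without CpG by the interaction test (edgeR, adjusted p under 0.1), all in the negative direction, where 7.58% of all genes tested were called in that direction and 5.84% in the other. The differences, on the log2 scale and as the effect with CpG minus that without, were -0.92 in Ndufa13, -0.88 in Ndufb1-ps, -0.86 in Ndufv3, -0.73 in Ndufb3, -0.70 in Cox7a2, -0.70 in Ndufb9, -0.64 in Ndufb8, -0.58 in Atp5j, -0.58 in Ndufa8, -0.55 in Ndufb5, -0.52 in Atp5o, -0.52 in Ndufb10, -0.48 in Ndufs8 and -0.47 in Ndufa7. Of these, 11 are complex I genes, which make up 37 of the 78 tested.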

How the results depend on the processing

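Medians of the 78 genes kept their sign in every comparison and alternative run (the fit of only the groups compared gives no interaction). The median of all genes moved by less than 0.1, except that of the interaction with no filter on low counts, from -0.05 to 0.064. Asking also for a log2 fold change over 1 left 1 gene higher with IFNα, 42 higher and 1 lower with CpG, 25 and 1 with CpG + IFNα, 0 and 0 for CpG + IFNα against CpG, 18 and 1 against IFNα, and 0 lower in the interaction. Each of these counts of higher genes above 0 includes Cox6a2. The 3 genes lower with CpG became 1 by DESeq2, with no filter on low counts and at an adjusted p under 0.05. For CpG + IFNα against CpG the 22 lower genes became 7 by DESeq2, 12 with DESeq2 size factors, 9 at an adjusted p under 0.05, 5 with no filter and 10 without mitochondrial genome and rRNA genes, and the 1 higher gene became 0 by DESeq2, at an adjusted p under 0.05 and with counts drawn down. The 14 interaction calls became 7 by DESeq2, 8 at an adjusted p under 0.05, 8 with counts drawn down, 8 with library size only, 7 with no filter and 9 without mitochondrial genome and rRNA genes. With library size only, IFNα alone lowered 2 genes (median 0.018). Counts drawn down gave medians of 0.77 for CpG + IFNα against unstimulated cells and 0.64 against IFNα, and no filter gave 0.9997 and 0.86, with 5 genes lower against IFNα. Without mitochondrial genome and rRNA genes, the members' share was 1.02%, 1.02%, 1.96% and 1.68% for no stimulus, IFNα, CpG and both. Leaving out 1 library at a time gave 3 to 7 higher and 0 to 1 lower with IFNα (median 0.06 to 0.15), 71 higher and 1 to 3 lower with CpG (1.02 to 1.13), 66 to 69 and 6 to 7 with CpG + IFNα (0.86 to 0.95), 0 to 1 and 7 to 31 against CpG (-0.29 to -0.18), 64 to 67 and 5 to 9 against IFNα (0.70 to 0.80), and 6 to 24 lower in the interaction (-0.37 to -0.23). The replicate number as a block gave 31 genes lower against CpG, 18 lower in the interaction and 7 higher with IFNα. The labels do not state that the numbers pair samples. A called change that reversed was that of Sdhaf1, an assembly factor, with CpG + IFNα against unstimulated cells, 0.37 (adjusted p = 0.088) and -0.014 with counts drawn down. Changes near 0 also reversed: Ndufs7 against CpG was -0.023 with counts drawn down and -0.047 to 0.070 without 1 library, Sdhb against CpG 0.018 with no filter, and against unstimulated cells with CpG + IFNα Nrf1 was 0.11 with no filter, 0.0096 by DESeq2 and -0.0855 to 0.062 without 1 library, and Polrmt 0.046 with no filter and -0.29 to 0.11 without 1 library. The causes were not tested. Placing Ndufa4 and Ndufa4l2 in complex IV moved no count by over 1.5 times. Of the single-gene values under all alternatives, 2567 kept their direction and call, 218 lost the call, 37 gained one and 20 reversed.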
